A study of Mus musculus with 6 samples.

Results

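CXC chemokine ligands are small secreted proteins, and 9 of them were followed here in sorted osteoblast (OB) progenitors with and without APPswe. They were taken by gene symbol from the 17469 genes of the table, in groups by role. Cxcl1, Cxcl2, Cxcl3 and Cxcl5 attract neutrophils, and Cxcl9 and Cxcl10 are induced by interferon. Cxcl13, Cxcl16 and Pf4 were kept as others. All 9 members passed the filter on low counts, among 12701 genes tested. Cxcl3 had no control library above the level of 0.482 CPM (counts scaled to the library total) that the filter asked of 3 libraries, so it was tested only because of its level in the other genotype. Cxcl9 had 2 control libraries above that level.

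The cells were bone marrow stromal cells (BMSCs), the attached cells of bone marrow cultures from 6-month-old mice, from which Ai9+ cells were sorted by FACS. Ai9 is a reporter allele that turns on the red protein tdTomato once Cre has acted, and OCN-Cre places Cre under the osteocalcin promoter of the OB lineage. The 3 control libraries came from OCN-Cre; Ai9 mice, which carry the Cre and the reporter but no APPswe. The 3 TgAPPsweOCN; Ai9 libraries came from mice that in addition carry human APP with the Swedish mutation, driven by the CAG promoter and blocked by a loxP-stop-loxP sequence until Cre removes it. No treatment was given. The name OB progenitor is the study's, and the markers measured were mostly those of myeloid cells. The 15 myeloid markers summed to 23398 to 25084 FPKM in control and 18506 to 22174 FPKM in TgAPPsweOCN; Ai9 libraries, against 136.34 to 139.72 and 102.06 to 146.75 FPKM for 15 stromal and osteoblast markers. Bglap, the mouse osteocalcin gene, was at most 1.25 FPKM. It had fractional counts, so reads could have been split with other genes. FPKM divides the fragments of a gene by gene length and library size. The labels number the libraries of each genotype without saying how many mice or cultures stand behind each one, so p-values measure the spread between these libraries, which may in part be technical.

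A CXC ligand binds receptors on the surface of white blood cells and draws those cells along its gradient. Cxcl1, Cxcl2, Cxcl3 and Cxcl5 act through Cxcr2 on neutrophils, Cxcl9 and Cxcl10 through Cxcr3 on activated T cells, Cxcl13 through Cxcr5 on B cells, and Cxcl16, which is made as a membrane protein, through Cxcr6. Pf4 is best known as a protein of platelet granules, and is also transcribed in macrophages. Transcription of the neutrophil-attracting ligands is classically driven by NF-kB after interleukin-1 or TNF, and that of Cxcl9 and Cxcl10 by the factors of the interferon route.

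Of the 9 members, 7 were up-regulated in TgAPPsweOCN; Ai9 cells, 1 was down-regulated (Pf4) and 1 was neither (Cxcl16). The up-regulated members were all 4 neutrophil-attracting ligands, both interferon-induced ligands and Cxcl13. Genes were called up- or down-regulated by edgeR's quasi-likelihood test when the Benjamini-Hochberg adjusted p, taken over all genes tested, did not exceed 0.05 and the genotypes differed by 1 or more on the log2 scale. Among all genes tested, 1130 (8.90%) were up-regulated and 1169 (9.20%) down-regulated, and the median log2 fold change was -0.02. With scaling by library size alone, that median was -0.23 and the counts were 846 up and 1732 down, while 7 members were still up-regulated and 1 down-regulated. In bulk RNA, fewer cells of a type and less RNA per cell cannot be told apart. Levels are given in FPKM and fold changes come from TMM-normalized counts.

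**Figure D1:**
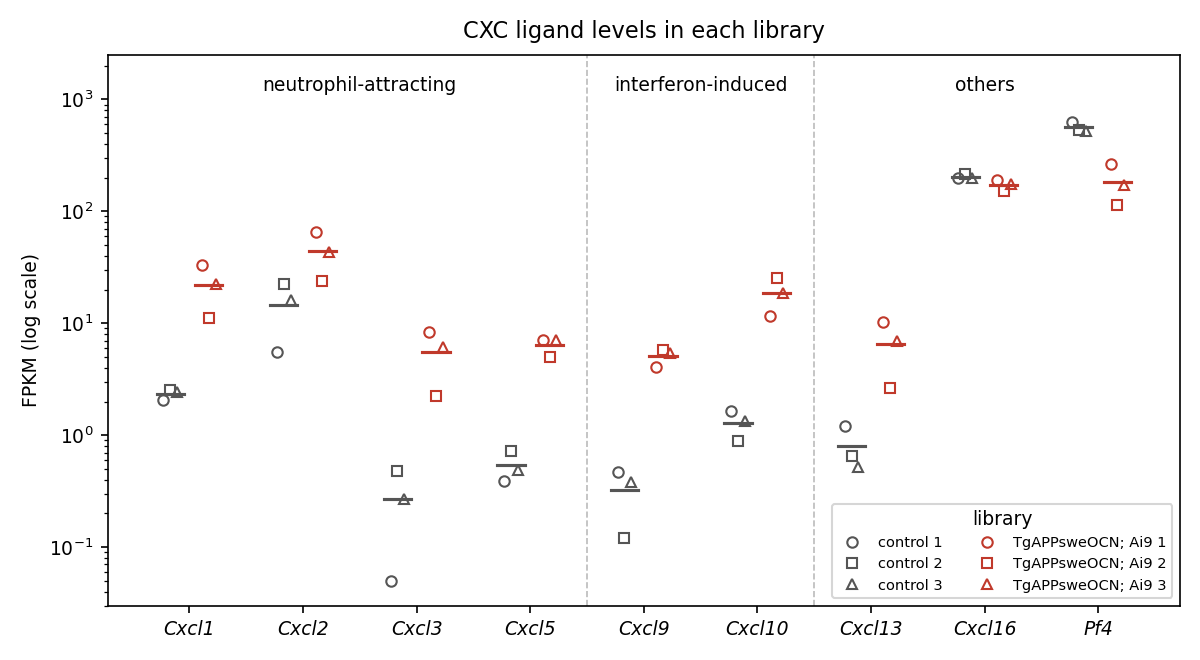
FPKM on a log axis for the 9 members in each of the 6 libraries, with control in grey and TgAPPsweOCN; Ai9 in red. Symbols mark the library number and bars the mean of 3 libraries. The 7 up-regulated members do not overlap between the genotypes, with the narrowest gap in Cxcl2 (22.61 against 23.84 FPKM), and Pf4 lies lower in all 3 TgAPPsweOCN; Ai9 libraries.

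Most members lie in a cluster on mouse chromosome 5. In GRCm38.p6 (RefSeq), the build to which mm10 in the processing notes corresponds, Cxcl5 (chr5:90759298-90761625), Ppbp, Pf4 (chr5:90772435-90773383), Cxcl3 (chr5:90786101-90788093), Cxcl1 (chr5:90891245-90893121) and Cxcl2 (chr5:90903899-90905938) spanned 146.6 kb in that order. Cxcl9 (chr5:92321331-92328079) and Cxcl10 (chr5:92346638-92348889), both on the minus strand, lay 18.6 kb apart further along the chromosome, followed by Cxcl13 (chr5:95956939-95961068). Cxcl16 (chr11:70454389-70459984) was the only member on another chromosome.

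Cxcl1, Cxcl2 and Cxcl3 share a short stretch of sequence before their start sites, which the choice of members did not use. In the 250 bases before the start, both strands were searched for an NF-kB type motif (GGGA, then any 2 bases, then TTCC), a pair of interferon regulatory factor cores (GAAA, any 2 bases, GAAA) and a STAT motif (TTC, any 3 bases, GAA). RefSeq promoter entries were found for 7 of the 9 members, all but Cxcl5 and Cxcl16. The NF-kB type motif was present in 4 of them, Cxcl1, Cxcl2, Cxcl3 and Cxcl10, and in 1.21% of all 32851 promoters. Cxcl1, Cxcl2 and Cxcl3 are related genes of one cluster with identical motif letters, so they are not separate occurrences to set against that share. The paired core was present in 1 member, Cxcl10, and in 2.98% of all promoters, and the STAT motif in 0 members and 7.02% of all promoters. Cxcl14, a CXC ligand outside the members that was down-regulated, held a paired core at -172 and a STAT motif at -191. The sequences below are the 120 bases before the start on the gene's own strand, for the 3 ligands with one and the same motif and for their neighbour Pf4, and for Cxcl10 the 120 bases from -230 to -111, which hold both of its motifs. Capitals mark the NF-kB type motif and, in Cxcl10, first the paired core and then the NF-kB type motif. They come from chr5:90891125-90891244 (Cxcl1), chr5:90903779-90903898 (Cxcl2), chr5:90785981-90786100 (Cxcl3), chr5:92349000-92349119 on the minus strand (Cxcl10) and chr5:90772315-90772434 (Pf4).
Cxcl1: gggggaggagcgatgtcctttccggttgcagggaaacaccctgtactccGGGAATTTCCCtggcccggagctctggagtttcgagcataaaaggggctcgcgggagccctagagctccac
Cxcl2: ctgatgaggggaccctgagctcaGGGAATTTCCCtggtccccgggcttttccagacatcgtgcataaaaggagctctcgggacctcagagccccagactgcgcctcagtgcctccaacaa
Cxcl3: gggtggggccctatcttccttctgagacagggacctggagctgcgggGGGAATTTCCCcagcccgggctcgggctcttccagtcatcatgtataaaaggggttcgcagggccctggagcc
Cxcl10: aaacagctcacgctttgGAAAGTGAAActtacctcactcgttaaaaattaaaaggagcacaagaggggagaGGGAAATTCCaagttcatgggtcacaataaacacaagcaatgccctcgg
Pf4: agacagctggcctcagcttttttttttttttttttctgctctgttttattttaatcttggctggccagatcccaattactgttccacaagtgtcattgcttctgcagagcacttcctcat

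Cxcl1, Cxcl2 and Cxcl3 carried the identical letters GGGAATTTCCC, which read as the motif on both strands with an overlap, starting 71, 97 and 73 bases before the start site. Cxcl10 carried GGGAAATTCC at -159 and GAAAGTGAAA at -213. Cxcl9, Cxcl13 and Pf4 held neither of these motifs in the 250 bases. A match of letters is a description of the sequence and not evidence of binding.

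Cxcl1, a main neutrophil attractant of mouse stromal and myeloid cells, stood at 2.07, 2.51 and 2.45 FPKM in the control libraries and at 32.91, 11.19 and 22.54 FPKM in TgAPPsweOCN; Ai9 libraries 1, 2 and 3. Every TgAPPsweOCN; Ai9 library was above every control library, and library 1 of that genotype was the highest. The log2 fold change was 3.46 (SE 0.402, adjusted p = 9.63e-05 by edgeR's quasi-likelihood test). The control values spread little (2.34 ± 0.239 FPKM, SD, n = 3) and the TgAPPsweOCN; Ai9 values more (22.2 ± 10.9).

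Cxcl2, also known as MIP-2 and a close relative of Cxcl1, was the most abundant member of its group in both genotypes. Its control libraries held 5.49, 22.61 and 16 FPKM and its TgAPPsweOCN; Ai9 libraries 65.46, 23.84 and 43.19 FPKM. The highest control library and the lowest TgAPPsweOCN; Ai9 library, both numbered 2, were almost level. The log2 fold change was 1.81 (SE 0.485, 95% interval 0.70 to 2.92, edgeR adjusted p = 0.0103), and its adjusted p was the largest among the members called. With library 3 of both genotypes left out, the adjusted p was 0.083 and Cxcl2 was no longer called.

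Cxcl3 was at the edge of detection in control cells, with 0.05, 0.48 and 0.27 FPKM, or 1, 9 and 5 counts. In TgAPPsweOCN; Ai9 cells it stood at 8.31, 2.22 and 6.09 FPKM, or 174, 46 and 125 counts. The log2 fold change was 4.55 (SE 0.662, edgeR adjusted p = 0.000364), and its interval, from 3.04 to 6.07, was the widest of the members. It was 5.25 without control library 2 and 4.07 without control library 1, where Cxcl9 (4.54) and Cxcl10 (4.26) were higher.

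Cxcl5, a ligand known from stromal and epithelial cells, rose with the smallest SE of the group. The control libraries held 0.39, 0.73 and 0.49 FPKM, and the TgAPPsweOCN; Ai9 libraries 7.14, 5 and 7.15 FPKM. Its rise was 3.79 on the log2 scale (SE 0.259, edgeR adjusted p = 4.53e-06), the smallest p of the 9 members.

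Cxcl9, which draws Cxcr3-bearing T cells, was at 0.47, 0.12 and 0.38 FPKM in control and at 4.04, 5.82 and 5.46 FPKM in TgAPPsweOCN; Ai9 cells. The genotypes did not overlap, and the log2 fold change was 4.18 (SE 0.318, edgeR adjusted p = 8.11e-06). Cxcl10, also called IP-10 and a ligand of the same receptor, was at 1.63, 0.88 and 1.35 FPKM in control. In TgAPPsweOCN; Ai9 libraries it reached 11.64, 25.46 and 18.67 FPKM, with library 2 the highest and library 1 the lowest. Its log2 fold change was 4.06 (SE 0.327, edgeR adjusted p = 1.13e-05), so the intervals of both interferon-induced ligands (3.45 to 4.91 and 3.31 to 4.80) covered nearly the same range. The Cxcl10 locus lies within the bounds of Art3, which was at 0.21 FPKM or less in every library.

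Cxcl13, the B cell attractant of lymphoid follicles, was at 1.21, 0.65 and 0.52 FPKM in control and at 10.2, 2.63 and 6.89 FPKM in TgAPPsweOCN; Ai9 cells. All 3 TgAPPsweOCN; Ai9 libraries were above the control range, and library 2 came closest to it. Cxcl13 rose by 3.26 on the log2 scale (SE 0.541, edgeR adjusted p = 0.000787). Its receptor Cxcr5 had at most 3 counts in any library.

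Cxcl16, the membrane-bound ligand that is shed by proteases, was abundant in both genotypes. It stood at 197.02, 214.91 and 200.44 FPKM in control and at 189.77, 152.31 and 175.32 FPKM in TgAPPsweOCN; Ai9 cells. On the FPKM scale all 3 TgAPPsweOCN; Ai9 libraries were lower, whereas TMM-normalized values overlapped between the genotypes. The log2 fold change was -0.10 (SE 0.0935, 95% interval -0.31 to 0.11, edgeR adjusted p = 0.378). With scaling by library size alone it was -0.32 (adjusted p = 0.0107), beside the shift of -0.23 in the median of all genes. Cxcl16 overlaps Zmynd15, which was at 11.26 to 17.57 FPKM, and had fractional counts, so reads in the shared stretch could have been split between them.

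Pf4, platelet factor 4, was the most abundant member in control cells and the only one that fell. It stood at 634.37, 536.28 and 523.91 FPKM in control and at 264.67, 114.6 and 173.51 FPKM in TgAPPsweOCN; Ai9 cells. Every control library was above every TgAPPsweOCN; Ai9 library, of which library 1 was the closest. The log2 fold change was -1.39 (SE 0.264, 95% interval -1.998 to -0.79, edgeR adjusted p = 0.00169).

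**Figure D2:**
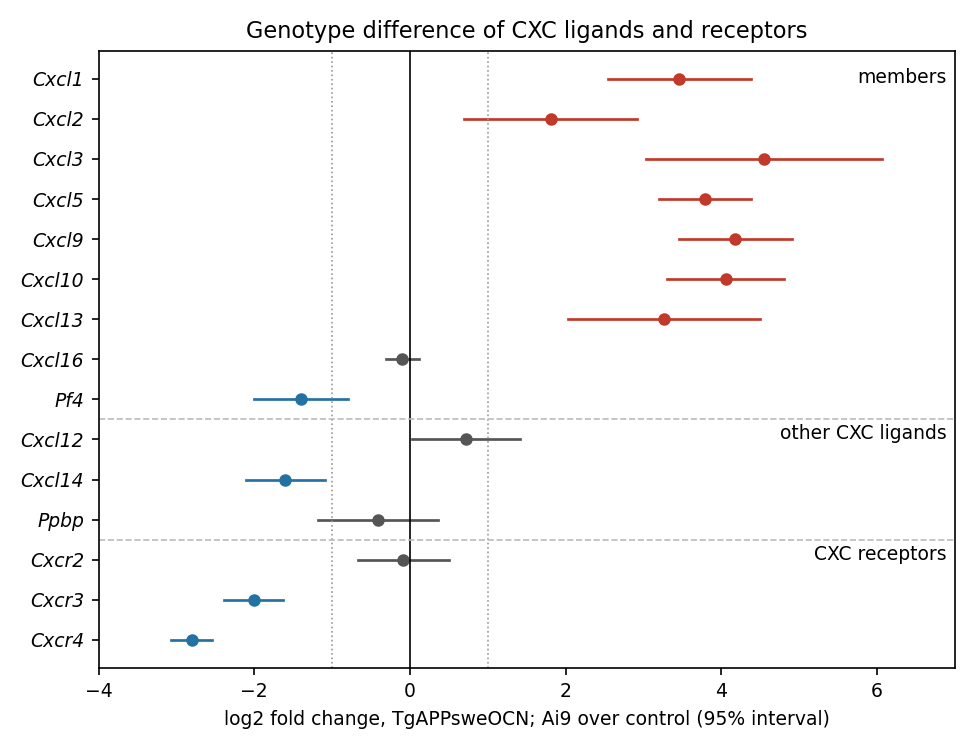
Log2 fold change of TgAPPsweOCN; Ai9 over control with its 95% interval for the 9 members, the 3 other CXC ligands and the 3 CXC receptors that were tested. Red marks up-regulated, blue down-regulated and grey neither, and dotted lines mark a log2 fold change of 1 in either direction. The 7 up-regulated members lie between 1.81 and 4.55, while Pf4, Cxcl14, Cxcr3 and Cxcr4 lie below -1.

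By level per gene length, the order in control cells was Pf4, Cxcl16, Cxcl2, Cxcl1, Cxcl10, Cxcl13, Cxcl5, Cxcl9 and Cxcl3. The first 4 ranges were separate from the next one down, and from Cxcl10 on each range overlapped its neighbour. In TgAPPsweOCN; Ai9 cells the members fell into 3 bands. Pf4 (184 ± 75.6 FPKM, SD, n = 3) and Cxcl16 (172 ± 18.9) overlapped at the top. Cxcl2 (44.2 ± 20.8), Cxcl1 (22.2 ± 10.9) and Cxcl10 (18.6 ± 6.91) overlapped with their neighbours in the middle, and Cxcl13, Cxcl5, Cxcl3 and Cxcl9 lay together between 2.22 and 10.2 FPKM.

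The summed level of the 4 neutrophil-attracting ligands was 8 to 26.33 FPKM in control and 42.25 to 113.82 FPKM in TgAPPsweOCN; Ai9 libraries. For both interferon-induced ligands together it was 1 to 2.1 FPKM in control and 15.68 to 31.28 FPKM in the other genotype. Because Pf4 and Cxcl16 made up most of the total, the sum over all 9 members was higher in control (745.81 to 842.7 FPKM) than in TgAPPsweOCN; Ai9 cells (343.07 to 594.14 FPKM). Over the 9 members, 7 were higher and 1 lower in TgAPPsweOCN; Ai9 with no overlap of TMM-normalized values. Among all genes tested, 34.8% were higher and 34.9% lower without overlap.

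Within a genotype, the neutrophil-attracting and interferon-induced ligands ranked the libraries in opposite orders on the scale of TMM-normalized CPM. On the FPKM scale the ranking differed for Cxcl5, which stood at 7.15 FPKM in TgAPPsweOCN; Ai9 library 3 and 7.14 FPKM in library 1. In TgAPPsweOCN; Ai9 cells, 4 of 4 neutrophil-attracting ligands were highest in library 1 and lowest in library 2, while 2 of 2 interferon-induced ligands were highest in library 2 and lowest in library 1. In control cells, 4 of 4 neutrophil-attracting ligands were highest in library 2 and lowest in library 1, while both interferon-induced ligands were highest in library 1 and lowest in library 2. Most of the control orders rest on few counts. The highest control library held 44 counts of Cxcl1, 9 of Cxcl3, 23 of Cxcl5, 26 of Cxcl9 and 33 of Cxcl10. Cxcl13, Cxcl16 and Pf4 followed the neutrophil-attracting order in TgAPPsweOCN; Ai9 cells, but in control cells Cxcl13 and Pf4 were highest in library 1 and only Cxcl16 was highest in library 2 and lowest in library 1. Among all genes tested, 41.1%, 35.8% and 23.2% were highest in TgAPPsweOCN; Ai9 libraries 1, 2 and 3, and 38.9%, 32% and 29.1% in control libraries 1, 2 and 3. The shares that were lowest, in the same order of libraries, were 37.7%, 38% and 24.3% in TgAPPsweOCN; Ai9 and 38.9%, 33.1% and 28% in control. Members measured in one library are not independent of each other. Neutrophil markers moved with these orders: of 9 neutrophil markers tested, 7 were highest in control library 1, 8 were lowest in control library 2 and 7 were highest in TgAPPsweOCN; Ai9 library 2, the order of the interferon-induced ligands. Of 15 myeloid markers, 11 were highest in control library 1, but 7 and 6 in TgAPPsweOCN; Ai9 libraries 1 and 2. Of 14 stromal and osteoblast markers, 8 were lowest in control library 1 and 6 highest in control library 2, and in the other genotype 8 were highest in library 2. Their part in the order of the members was not tested. Library 3 of TgAPPsweOCN; Ai9 lay between the other libraries of its genotype for 9 of 9 members and for 52.6% of all genes tested, also in TMM-normalized CPM.

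**Figure D3:**
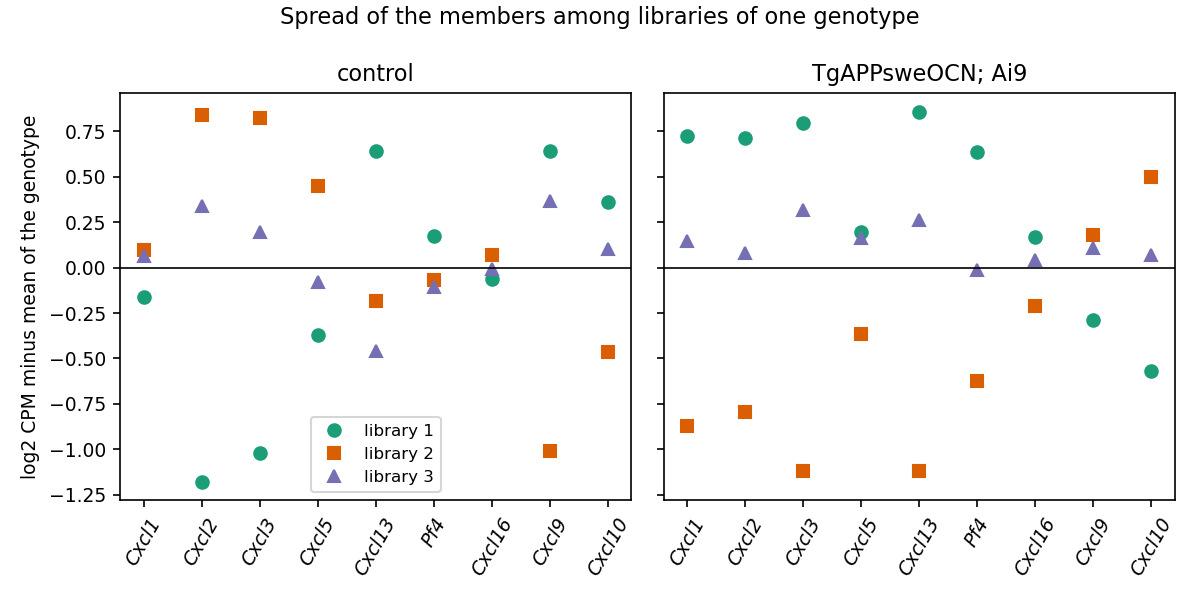
Log2 CPM (TMM-normalized) of each member minus the mean of its genotype, for control on the left and TgAPPsweOCN; Ai9 on the right, with 1 point per library. Members on the horizontal axis run from the 4 neutrophil-attracting ligands, through the others, to both interferon-induced ligands. Libraries 1 and 2 exchange places between the ends of each panel.

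The genes whose pattern over the 6 libraries was most like that of a member were found by the Euclidean distance of centred log2 CPM. Nearest to Cxcl10 were Ms4a4c (0.40), Rsad2 (0.42), an interferon-induced antiviral gene, and Igsf9 (0.47). Nearest to Cxcl2 were P3h2 (0.61), Mmp10 (0.94), a matrix protease, and Hs3st3a1 (0.95), so no gene followed Cxcl2 as closely. Nearest to Pf4 were 4930467E23Rik (0.42), Gm30732 (0.48) and Apol7c (0.53).

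Within the cluster, genes that rose and genes that did not were next to each other. Pf4 ended 12.7 kb before Cxcl3 began, and its log2 fold change was -1.39 against 4.55 for Cxcl3. Ppbp, which encodes another platelet chemokine and lies between Cxcl5 and Pf4, was at 2.16, 1.59 and 2.29 FPKM in control and at 0.67, 1.62 and 1.64 FPKM in TgAPPsweOCN; Ai9 cells (log2 fold change -0.41, SE 0.335, edgeR adjusted p = 0.313). Cxcl1 and Cxcl2 were 10.8 kb apart with log2 fold changes of 3.46 and 1.81. Past Cxcl2, Mthfd2l (-0.07) and Ereg (-0.02) were not called.

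**Figure D4:**
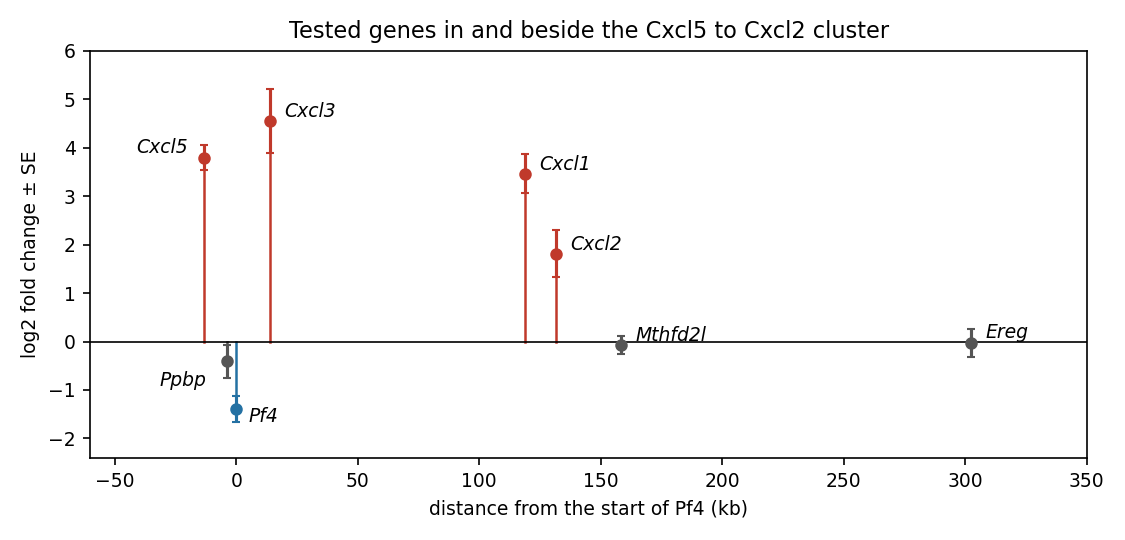
Log2 fold change ± SE of each tested gene in and beside the Cxcl5 to Cxcl2 cluster, against the distance of its start from the start of Pf4 in kb. Red is up-regulated, blue down-regulated and grey neither. Pf4 at -1.39 stands between Cxcl5 at 3.79 and Cxcl3 at 4.55.

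None of the 3 other CXC ligands tested was up-regulated. Cxcl14, a ligand of epithelia and stroma, was down-regulated from 35.66, 53.31 and 46.6 FPKM to 16.38, 8.89 and 13.02 FPKM (log2 fold change -1.60, SE 0.224, edgeR adjusted p = 0.000296). Cxcl12, the stromal ligand that retains blood stem cells in marrow, was at 40.78, 22.74 and 31.69 FPKM in control and at 27.02, 63.4 and 44.1 FPKM in TgAPPsweOCN; Ai9 cells. The genotypes overlapped, and its log2 fold change of 0.72 (SE 0.303) had an edgeR adjusted p of 0.0643. Of the 6 genes on that list, Cxcl11, Cxcl15 and Cxcl17 had no row in the table used.

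Of 8 CXC receptors, 3 were expressed enough to be tested and 2 were down-regulated. Cxcr4, the receptor of Cxcl12, was at 172.71, 217.39 and 204.14 FPKM in control and at 20.71, 27.84 and 24.66 FPKM in TgAPPsweOCN; Ai9 cells (log2 fold change -2.81, SE 0.117, edgeR adjusted p = 3.24e-07). Cxcr3, the receptor of Cxcl9 and Cxcl10, was at 6.16, 6.68 and 5.9 FPKM in control and at 1.27, 1.63 and 1.11 FPKM in TgAPPsweOCN; Ai9 cells (-2.01, SE 0.166). Cxcr3 thus fell in the cells in which Cxcl9 and Cxcl10 rose. Cxcr2, the receptor of the neutrophil-attracting ligands, was between 0.38 and 0.73 FPKM in all 6 libraries (-0.08, SE 0.256, edgeR adjusted p = 0.789). Cxcr1, Cxcr5, Cxcr6, Ackr1 and Ackr3 stayed at or below 0.42 FPKM and were not tested.

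NF-kB is held in the cytoplasm by inhibitors that are themselves its targets, and 6 of 15 genes of this route rose and 0 fell, with a median log2 fold change of 0.69. Of all genes tested, 8.90% rose and 9.20% fell. Nfkbiz, the nuclear cofactor IkB-zeta, was at 15.51, 21.11 and 21 FPKM in control and at 257.72, 205.13 and 231.95 FPKM in TgAPPsweOCN; Ai9 cells (3.81, SE 0.148). The inhibitor Nfkbia (2.11, SE 0.129), the deubiquitinating feedback regulator Tnfaip3 (2.32, SE 0.102), the kinase Ikbke (1.96, SE 0.102), the cofactor Bcl3 (1.53, SE 0.0585) and the subunit Nfkb2 (1.02, SE 0.103) also rose. Nfkb2 lay at the fold threshold, and 5 genes of the route rose without control library 3, without TgAPPsweOCN; Ai9 library 1, with library size alone and in both limma fits. The subunits Nfkb1 (0.00, edgeR adjusted p = 0.972) and Rela (-0.17, edgeR adjusted p = 0.03) were not called. With adjusted p alone, 10 genes of the route were higher and 3 lower: Rela, the inhibitor Nfkbie (-0.55, SE 0.111) and the kinase Ikbkb (-0.34, SE 0.0547).

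Of 9 tested inducers and their receptors, 3 cytokines rose and 0 genes fell, with a median log2 fold change of 0.24. Il1a, an interleukin-1 cytokine, was at 0.11, 0.24 and 0.24 FPKM in control and at 18.44, 1.96 and 10.73 FPKM in TgAPPsweOCN; Ai9 cells (5.77, SE 0.92, edgeR adjusted p = 0.000634). Its libraries of TgAPPsweOCN; Ai9 stood in the same order as those of Cxcl1, Cxcl2 and Cxcl3. Il1b was at 13.15, 15.9 and 14.97 FPKM in control and at 175.73, 146.43 and 108.84 FPKM in TgAPPsweOCN; Ai9 cells. Its counts, on which the test rests, were 5001, 1319 and 3053 in those libraries, so library 2 was the lowest by counts and library 3 by FPKM (log2 fold change 3.08, SE 0.432). Tnf was at 36.23, 38.03 and 34.39 FPKM and at 215.66, 162.77 and 183.38 FPKM (2.59, SE 0.116). The adaptor Myd88 had a log2 fold change of 0.95 (SE 0.0565), short of the threshold, and Il17a was at 0 in 5 of 6 libraries. With adjusted p alone, 5 genes of this list were higher and 2 lower.

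Of 13 tested genes of the interferon route, 4 rose and 1 fell, with a median log2 fold change of 0.25. The shares of all genes tested were 8.90% and 9.20%. Irf7, the regulator that amplifies type I interferon, was at 82.89, 34.67 and 49.56 FPKM in control and at 508.08, 594.02 and 531.69 FPKM in TgAPPsweOCN; Ai9 cells (3.50, SE 0.282). Stat2 (1.70, SE 0.121) and the kinase Jak2 (1.42, SE 0.133) were also among those that rose, and the interferon-gamma receptor chain Ifngr1 fell (-1.10, SE 0.0989), a call that was lost without control library 1. Irf1 (-0.48, SE 0.0637) and the type I receptor chains Ifnar1 (-0.68, SE 0.0752) and Ifnar2 (-0.79, SE 0.0502) were lower without passing the fold threshold. Ifnb1, the gene of interferon-beta, had 0 counts in each control library and 8, 8 and 7 counts in the other genotype, and did not pass the filter. With no filter beyond 1 count 5 genes of the route rose, and with library size alone 2 fell. With adjusted p alone, 7 were higher and 5 lower. Ifng was at 0 in 5 of 6 libraries. In control cells, 10 of the 13 genes were highest in library 1, as were Cxcl9 and Cxcl10 and 38.9% of all genes tested. In TgAPPsweOCN; Ai9 cells, 6 of the 13 were highest in library 1 and 6 in library 2.

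Many chemokine transcripts are short-lived, with AU-rich elements or stem-loops through which they are degraded. Of 7 factors of mRNA decay and stability, the endonuclease Zc3h12a, which cuts at stem-loops, rose (2.28, SE 0.0617), and the AU-rich element binding proteins Zfp36l1 (-2.30, SE 0.0599) and Zfp36l2 (-1.82, SE 0.0698) fell. Zfp36 itself was lower without reaching the fold threshold, at 431.37, 593.54 and 523.07 FPKM in control and at 269.62, 237.34 and 257.38 FPKM in TgAPPsweOCN; Ai9 cells (-0.80, SE 0.115).

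Of 6 proteases known to cut or shed CXC ligands, 3 rose and 1 fell. Mmp9, a gelatinase, was at 2.74, 1.31 and 1.6 FPKM in control and at 169.19, 69.29 and 124.23 FPKM in TgAPPsweOCN; Ai9 cells (6.23, SE 0.414). Mmp14 rose by 1.43 on the log2 scale (SE 0.0795), and Mmp12, the macrophage elastase, fell from 85.33, 161.37 and 131.64 FPKM to 27.67, 19.29 and 21.54 FPKM (-2.25, SE 0.238). Dpp4 was called (1.48, SE 0.486) at no more than 0.22 FPKM, with 0 control libraries above the filter level. The count that rose was 2 under DESeq2, the stricter count filter, both limma fits and 4 of 6 fits that left out 1 library. The sheddases of Cxcl16, Adam10 (-0.19, SE 0.0914) and Adam17 (0.52, SE 0.0773), did not reach the fold threshold.

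**Figure D5:**
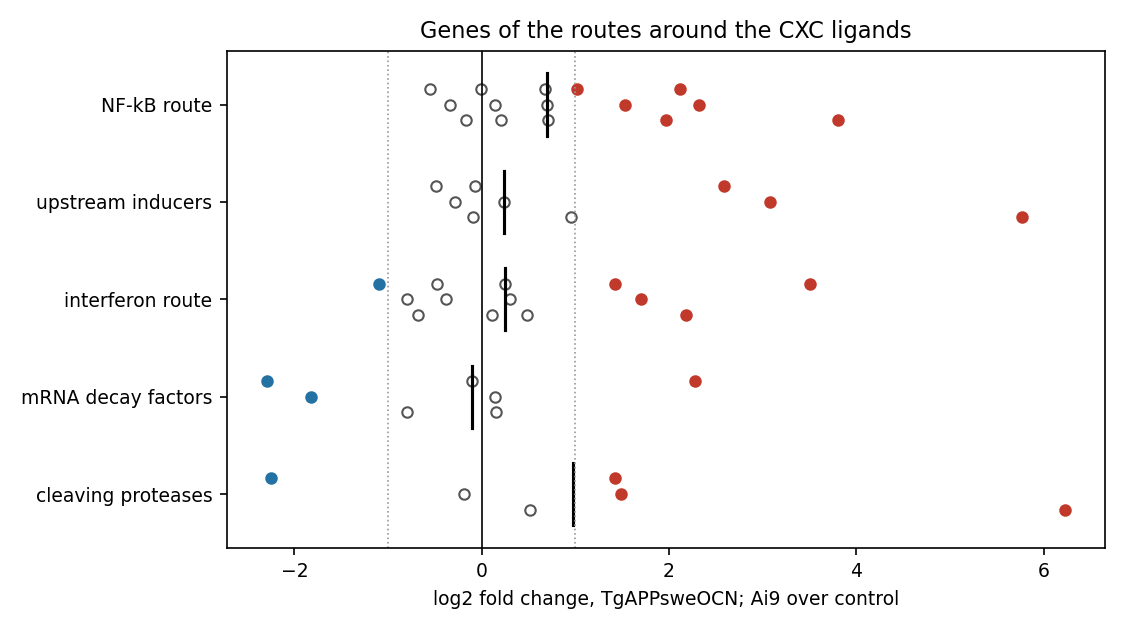
Log2 fold change of TgAPPsweOCN; Ai9 over control for each tested gene of 5 lists around the CXC ligands, with 1 point per gene and a black bar at the list median. Filled red points are up-regulated, filled blue points down-regulated and open points neither, and dotted lines mark a log2 fold change of 1 in either direction. The NF-kB list has 6 red and 0 blue points, and the decay factors have 1 red and 2 blue points.

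App, the mouse gene to which reads of the human transgene may also map, was at 281.1, 274.95 and 280.92 FPKM in control and at 325.21, 331.95 and 332.86 FPKM in TgAPPsweOCN; Ai9 cells (log2 fold change 0.45, SE 0.0509, edgeR adjusted p = 7.87e-05). It was not called, and 34.8% of all genes tested were higher in TgAPPsweOCN; Ai9 without overlap. The rise of App therefore cannot check the genotype labels. Library totals ran from 19340810 to 22037840 counts, and 3 counts, taken as the smallest detectable level, were 0.136 to 0.155 CPM, which covers counting error only.

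Of the 15 myeloid markers, 5 rose, among them Adgre1 (1.89, SE 0.131) and Aif1 (2.04, SE 0.138), and 4 fell, among them Csf1r (-1.49, SE 0.0804) and Mrc1 (-2.38, SE 0.133). The part of a changed mix of myeloid cells in the results for the members was not tested.

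Beside the neutrophil-attracting ligands, 9 neutrophil markers were tested and 1 rose, with sums over the list of 58.56 to 111.95 FPKM in control and 73.65 to 99.78 FPKM in TgAPPsweOCN; Ai9 libraries. That marker, Camp, had 9, 1 and 4 counts in control and passed the filter only through the other genotype, and 0 markers rose when 10 counts were asked of every library. Ly6g, a defining neutrophil surface marker, was at 0 in all control libraries and at most 0.06 FPKM. Beside Pf4, 4 of 11 megakaryocyte and platelet markers were tested and 3 fell, and the list summed to 26.35 to 43.12 FPKM in control and 4.54 to 4.99 FPKM in TgAPPsweOCN; Ai9 libraries. Most of the control sum was Treml1, a receptor of platelet granules, at 22.92, 39.27 and 29.1 FPKM (-3.30, SE 0.215), while Gp9, Gp6, Gp5 and Tubb1 stayed at or below 0.77 FPKM. Gp9 (5, 5 and 6 counts in control against 11, 9 and 18) and Gp6 (0, 0 and 1 against 7, 4 and 9) were higher in every TgAPPsweOCN; Ai9 library, and with no filter beyond 1 count 2 markers of the list rose. With limma on log2(FPKM + 1), 1 of the list fell. Their part in the fall of Pf4 was not tested. Of 2 lymphocyte markers tested, Cd79b rose (1.75, SE 0.212), and Cd79a, Ms4a1 and Cd3e were at or below 0.09 FPKM. Of 14 stromal and osteoblast markers tested, 2 rose (Dcn and Lum) and 0 fell. Lum had 0, 1 and 0 counts in control and passed the filter only through the other genotype, and 1 marker fell without control library 1. Of 5 osteoclast markers tested, Acp5 and Ocstamp rose and Atp6v0d2 fell. Ocstamp had 0, 0 and 1 counts in control and likewise passed only through the other genotype. The list summed to 34.37 to 57.33 FPKM in control and 34.39 to 56.71 FPKM in TgAPPsweOCN; Ai9 libraries.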

How the data were processed

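RNA-seq was measured in Ai9+ BMSCs with 3 libraries of each genotype. Per the labels, the processing notes name HISAT2 2.0.4, Bowtie2 2.2.5, RSEM 1.2.12, DESeq2 1.4.5 and the build mm10; the annotation is not given in the sources used here. The authors deposited estimated counts, fractional for 13.3% to 14.4% of the genes per library, and FPKM values rounded by them. A further table of FPKM with the authors' own fold changes and p-values was not used. Rounding the estimated counts made them whole, a change from the planned test on raw counts, and they were compared over 12701 genes by the quasi-likelihood test of edgeR 4.0.16 in R 4.3.3, after filterByExpr and TMM scaling. SE is the size of the log2 fold change over the square root of F. Library totals of 19340810 to 22037840 counts make values of a few counts imprecise. The biological coefficient of variation was 9.85%. The labels do not say whether replicate numbers pair the libraries, and the main fit did not pair them.

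The members and the lists of other ligands, receptors, routes and markers were chosen with earlier results of these data known. Named genes were all 9 members, the listed genes called and at most 4 others per list, App, and the 3 genes nearest to Cxcl2, Cxcl10 and Pf4 (log2 CPM, prior count 2). Mthfd2l, Ereg, Art3 and Zmynd15 were named for their position, and undetected markers and receptors for their level. Nfkbie, Ikbkb, Ifnar1 and Ifnar2 were named for being lower. All of these were named after their values were seen. Other listed genes enter the counts, medians and sums of their lists without being named, and some are not reported here. Promoters and positions come from RefSeq tables of GRCm38.p6.

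Alternatives were DESeq2 1.42.0, RLE factors, library size only, no filter beyond 1 count, at least 10 counts in every library, a replicate block, limma 3.58.1 on log2(FPKM + 1) or log2(FPKM + 0.1), adjusted p alone and each library left out. Leaving out library 3 of both genotypes was added after seeing the data. Tables and plots used Python 3.11.15, numpy 2.4.6, pandas 2.3.3 and matplotlib 3.10.9.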

Additional observations from a re-analysis of the deposited data

How the results depend on the processing

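Of the members, 7 were up-regulated and 1 down-regulated under every alternative except 2. Asking for 10 or more counts in all libraries left 5 up-regulated, since Cxcl3 and Cxcl9 were then not tested, and leaving out library 3 of both genotypes left 6, since Cxcl2 had an adjusted p of 0.083. With limma on log2(FPKM + 1), which understates changes of low genes, the rises were smaller, at 1.95 (Cxcl13) to 2.27 (Cxcl5) for Cxcl3, Cxcl5, Cxcl9 and Cxcl13, 2.68 for Cxcl1 and 3.05 for Cxcl10 on the log2 scale. For Cxcl16 the log2 fold change turned to 0.0020 without TgAPPsweOCN replicate 2 and was -0.18 without TgAPPsweOCN replicate 1. Among all genes, limma on log2(FPKM + 1) gave 593 up-regulated genes and library size only 1732 down-regulated genes, and adjusted p alone gave 4122 and 4006. Leaving out 1 library at a time gave 1101 to 1149 up-regulated and 1123 to 1258 down-regulated genes. The replicate numbers are shared between the genotypes, and deviations of same-numbered libraries correlated at 0.013, 0.0067 and 0.14. Weak correlations cannot exclude a shared culture or day, which the labels do not state. With the replicate block, 7 members were up-regulated and 1 down-regulated (Cxcl2 at adjusted p 0.0436), and 1115 and 1147 genes in all. The block left 2 proteases up-regulated in place of 3 and 1 stromal marker down-regulated in place of 0. Asking for 10 or more counts in all libraries left 1 stromal, 1 osteoclast and 0 neutrophil markers and 2 inducers up-regulated, in place of 2, 2, 1 and 3. Depth limits Cxcl3, with 1 to 9 counts in the control libraries.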
